A study of Mus musculus with 23 samples.

Results

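The 9 genes described here encode the pathway by which cells present peptides on major histocompatibility complex (MHC) class I molecules: the heavy chains H2-D1, H2-K1 and H2-T23, the light chain B2m, the peptide transporter genes Tap1 and Tap2, the loading factor Tapbp, and the immunoproteasome genes Psmb8 and Psmb9. They were found by their symbols among the 55335 genes of the count table, of which 34928 had a count in some library. All 9 had counts in each of the 23 libraries, and all 9 passed the filter on low counts in every comparison. RNA of whole hippocampus was sequenced from female 3xTg mice, which model Alzheimer's disease, and from wild-type (WT) mice. Among their alleles, the 3xTg mice carry human APPSwe and tauP301L transgenes, both driven by a neuron-specific Thy1 element. The WT mice (C57BL/6J x 129S1) are the hybrid strain control and not littermates, so the alleles of the model and other differences between the lines cannot be told apart. Mice of 8 months were untreated, with 4 animals in WT-8M and 4 in 3xTg-8M. Mice of 10 months had a ventricular infusion from an osmotic pump for 28 days, with 80 µM of an inhibitor of stearoyl-CoA desaturase, SCDi (WT-S, n = 3, and 3xTg-S, n = 4), or with its vehicle of 0.8% DMSO (WT-D, n = 4, and 3xTg-D, n = 4). Each replicate was a different animal.

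MHC class I molecules display short peptides from inside the cell at its surface. Peptides are cut by the proteasome, whose catalytic subunits can be replaced by the interferon-inducible subunits encoded by Psmb8 and Psmb9, and the TAP transporter carries them into the endoplasmic reticulum. There tapasin (Tapbp) holds an empty heavy chain and B2m beside the transporter until a peptide binds. H2-K1 and H2-D1 encode classical heavy chains, which present to CD8 T cells, and H2-T23 encodes the non-classical heavy chain Qa-1, which is read by inhibitory receptors of natural killer cells. The genes are known as targets of interferons, and in the brain they are expressed by microglia and endothelium and at low levels in neurons, where class I molecules have been linked to synapse remodelling.

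In GRCm38, 8 of the 9 genes lie on chromosome 17 and B2m on chromosome 2. H2-K1 (ENSMUSG00000061232.16) spans chr17:33996017-34000347, H2-D1 (ENSMUSG00000073411.12) chr17:35262730-35267499, and H2-T23 (ENSMUSG00000067212.8) chr17:36029773-36032855. Psmb9 (ENSMUSG00000096727.3, chr17:34181987-34187764), Tap1 (ENSMUSG00000037321.17, chr17:34187553-34197225), Psmb8 (ENSMUSG00000024338.15, chr17:34197721-34201454) and Tap2 (ENSMUSG00000024339.12, chr17:34203527-34216321) form a tight cluster, and Psmb9 and Tap1 overlap on opposite strands. Tapbp (ENSMUSG00000024308.15) spans chr17:33915899-33929292, and B2m (ENSMUSG00000060802.8) spans chr2:122147686-122153083. Whether reads were counted by strand is not given in the sources used here, so reads from the overlap of Psmb9 and Tap1 cannot be told apart. Of all 75-base windows of the transcripts, the share also found in another gene was 13.1% for H2-T23, 7.1% for H2-D1, 1.6% for H2-K1 and 0.0% for B2m among the chains, and 17.5% for Tapbp, 10.8% for Psmb9, 9.0% for Tap2, 4.8% for Tap1 and 3.2% for Psmb8.

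The upstream sequences are shown for the light chain and a classical heavy chain because both hold the core letters of the interferon motif, and the heavy chain also holds NF-kappaB letters that it shares with H2-D1. Of the RefSeq promoter windows (GRCm38.p6, 250 bases before the start), 8 of the 9 genes had an entry, and Tap2 had none. All 250 bases of the windows of H2-D1, Tap1, Tapbp, Psmb8 and Psmb9 lay in annotated exons, as did 154 bases of H2-T23. These windows thus hold bases that are transcribed in the annotation. The letters AANNGAAA (the core bound by interferon regulatory factors, searched on both strands) were in 4 of these 8 windows and in 21.6% of all 27018 promoters. The kappaB letters GGGATTCCC were in 2 of the 8, H2-K1 and H2-D1, and in 85 promoters or 0.3% of all. TTCNNNGAA, the letters bound by STAT factors, were in 1 of the 8, Psmb8, and in 7.1% of all. TGACG, a core bound by CREB-family factors, was in 5 of the 8 and in 17.8% of all. The windows of Tap1 (chr17:34187306-34187555) and Psmb9 (chr17:34187331-34187580) overlap on opposite strands, and their TGACG match is the same stretch of bases. These 5 windows thus do not hold 5 separate sites. Within each window no match overlapped another. Capitals in the 2 windows below mark the kappaB letters and the interferon regulatory factor core, written 5′ to 3′ on the strand of the gene, for H2-K1 (chr17:34000348-34000597, minus strand) and B2m (chr2:122147437-122147686, plus strand). In H2-K1 and H2-D1 the interferon regulatory factor core reads on the opposite strand, so its reverse complement is in capitals.
H2-K1: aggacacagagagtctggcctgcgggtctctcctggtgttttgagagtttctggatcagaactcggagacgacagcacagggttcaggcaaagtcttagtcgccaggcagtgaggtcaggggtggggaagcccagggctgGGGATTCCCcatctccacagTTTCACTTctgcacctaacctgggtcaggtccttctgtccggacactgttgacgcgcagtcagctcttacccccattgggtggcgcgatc
B2m: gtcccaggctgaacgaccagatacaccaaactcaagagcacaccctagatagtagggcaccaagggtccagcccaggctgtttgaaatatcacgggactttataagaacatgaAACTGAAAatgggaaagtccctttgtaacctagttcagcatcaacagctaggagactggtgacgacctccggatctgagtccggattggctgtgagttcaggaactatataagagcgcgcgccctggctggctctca
The kappaB and interferon elements of H2-K1 (chr17:34000430-34000457, minus strand, bases -110 to -83 from the start) and of H2-D1 (chr17:35262924-35262951, plus strand, bases -170 to -143 from the start, inside an annotated exon of a longer H2-D1 transcript) were alike over 28 bases.
H2-K1: GGGATTCCCcatctccacagTTTCACTT
H2-D1: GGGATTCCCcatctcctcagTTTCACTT
Of the 28 bases 27 were identical, and the difference was A17T, with the H2-K1 base first and positions counted from 1 at the 5′ end. A match of letters is a description of the sequence and was not tested as a binding site.

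Gene counts per library lay between 12.8M and 36.7M in mice of 8 months, and between 12.99M and 17.6M in mice of 10 months. At this depth B2m had 841 to 3703 counts per library, H2-D1 240 to 1236, H2-K1 215 to 981 and Tapbp 224 to 763. The remaining genes were read less often, with 73 to 298 counts for Tap2, 35 to 176 for H2-T23, 29 to 154 for Psmb8, 20 to 149 for Tap1 and 8 to 60 for Psmb9, so the values of Psmb9 and Tap1 are the least precise. Levels below are CPM, gene counts scaled by TMM to a common library total, and the spread after ± is the SD over animals. Among the libraries 2 stood apart most in these genes. 3xTg-D replicate 4 had the highest value of its group in 8 of the 9 genes, by a mean of 0.68 on the log2 scale over the rest of the group. 3xTg-8M replicate 3 had the lowest value of its group in all 9, by a mean log2 difference of -0.83. The values that moved most without them are given beside the results.

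Per kilobase of transcript, B2m was the most abundant of the 9 transcripts in each of the 6 groups, followed in this order by H2-K1, H2-D1, Tapbp and H2-T23. In WT-D the levels were 79.6 CPM per kilobase for B2m, 15.02 for H2-K1, 12.1 for H2-D1, 6.89 for Tapbp and 2.37 for H2-T23. They were 1.98 CPM per kilobase for Tap2, 1.89 for Psmb8, 0.989 for Tap1 and 0.675 for Psmb9. The light chain thus exceeded each heavy chain in this unit, and the transporter and immunoproteasome genes were at the low end. In WT-D only the neighbours H2-T23 and Tap2, and Tap2 and Psmb8, had overlapping ranges, whereas H2-K1 and H2-D1 overlapped in every other group. In 3xTg-D, Psmb9 at 1.49 and Tap1 at 1.47 CPM per kilobase stood in the reverse order, with overlapping ranges.

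**Figure D1:**
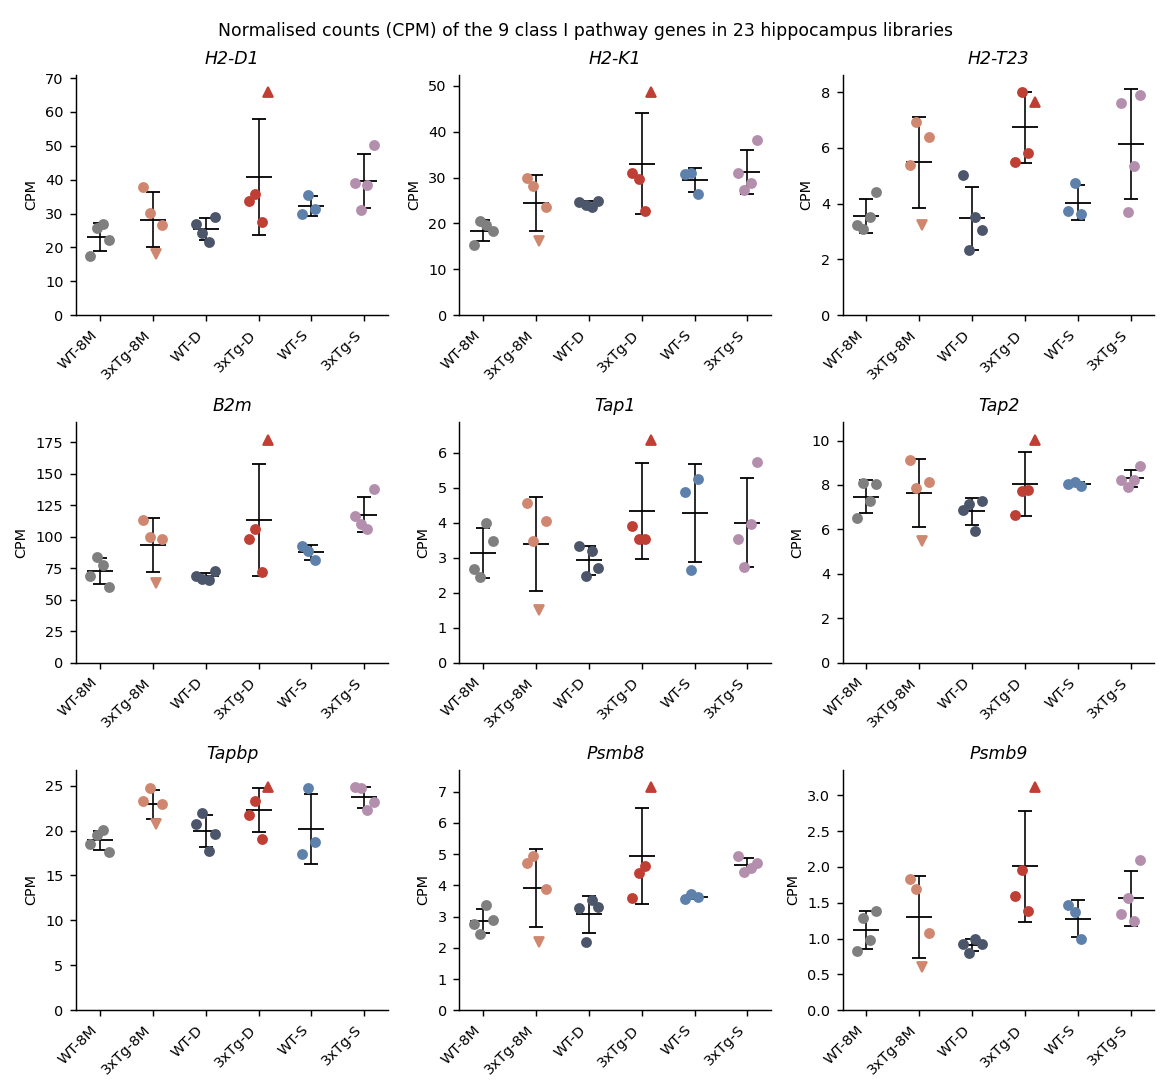
Levels of the 9 genes in CPM (y axis of each panel, from 0) in the 6 groups (x axis), 1 point per animal, with the group mean and SD as bars. The upward triangle is 3xTg-D replicate 4 and the downward triangle 3xTg-8M replicate 3, which lie at the top of their group in 8 genes and at the bottom in 9.

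The first question was whether the pathway differed between the strains. At 10 months, over both infusions (8 3xTg against 7 WT animals, infusion as a second term), 4 of the 9 genes were called higher in 3xTg at an adjusted p under 0.05 in edgeR's quasi-likelihood test, where 3.17% of 16262 tested genes were called higher. They were H2-T23, B2m, Psmb8 and Psmb9. All 9 log2 differences were positive, from 0.15 for Tap2 to 0.79 for H2-T23, with a median of 0.50 against -0.001 over all tested genes. In the single pairs fewer genes were called. With vehicle alone (3xTg-D against WT-D) 0 of the 9 were called, where 0.638% of all tested genes were called higher, although all 9 differences were positive with a median of 0.67. There, 3 genes had an unadjusted p under 0.01 against 2.49% of all genes, 7 had one under 0.05 against 6.25% of all, and DESeq2's likelihood ratio test called 1, H2-T23. In untreated mice of 8 months 0 were called against 1.05% of all, and all 9 differences were positive with a median of 0.32, or 0.49 without 3xTg-8M replicate 3. Of these 9, 1 had an unadjusted p under 0.01 against 3.13% of all and 4 had one under 0.05 against 8.55% of all, and DESeq2 called 0. With the inhibitor (3xTg-S against WT-S) 1 gene was called, B2m, against 0.613% of all. There 8 of 9 differences were positive with a median of 0.29, and 1 had an unadjusted p under 0.01 against 2.07% of all. Replicate 4 of 3xTg-S was the highest of its group in 7 of the 9 genes. Without it 7 of 9 differences were positive with a median of 0.16, and 0 were called.

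The light chain B2m had 68.8, 66.3, 66.0 and 72.8 CPM in the 4 WT-D animals and 98.3, 106.2, 72.3 and 177.0 CPM in the 4 3xTg-D animals. With the inhibitor it had 92.9, 88.6 and 81.3 CPM in WT-S and 116.3, 110.1, 106.1 and 137.6 CPM in 3xTg-S. Every 3xTg-S animal was above every WT animal of 10 months, and in the vehicle groups the lowest 3xTg-D animal lay just inside the WT-D range. The strain difference at 10 months was 0.58 on the log2 scale (SE 0.13, adjusted p 0.00963), and it was called in 22 of 23 alternatives, the exception being the fit with the microglia score as a covariate (0.07, adjusted p 0.862). It was 0.72 (SE 0.20, adjusted p 0.129) between the vehicle groups, with means of 113.4 ± 44.8 and 68.5 ± 3.14 CPM, and 0.42 without 3xTg-D replicate 4. Between the inhibitor groups it was 0.42 (SE 0.09, adjusted p 0.0448), with means of 117.5 ± 14.01 (n = 4) and 87.6 ± 5.87 CPM (n = 3). That call was close to the threshold and held in 5 of 16 alternatives. The adjusted p was 0.132 or 0.173 when WT-S replicate 2 or 3 was left out, and 0.142, 0.0516 or 0.0954 when 3xTg-S replicate 1, 2 or 4 was, with log2 differences from 0.34 to 0.45.

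At 8 months B2m had 68.7, 84.3, 77.3 and 60.3 CPM in WT-8M and 113.2, 100.2, 63.1 and 98.5 CPM in 3xTg-8M. 3xTg-8M replicates 1, 2 and 4 lay above all WT-8M animals and replicate 3 lay among them. The log2 difference was 0.38 (SE 0.16, adjusted p 0.245). Without 3xTg-8M replicate 3 it was 0.52 and called (adjusted p 0.0379), as were H2-K1 (0.58, adjusted p 0.0341) and H2-T23 (0.78, adjusted p 0.0432).

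The classical heavy chains had positive log2 strain differences at both ages that were not called. H2-D1 had 27.0, 24.2, 21.5 and 29.0 CPM in WT-D against 33.6, 35.9, 27.6 and 65.8 CPM in 3xTg-D, 29.8, 35.6 and 31.4 CPM in WT-S and 39.0, 31.2, 38.3 and 50.3 CPM in 3xTg-S. H2-K1 had 24.7, 24.1, 23.6 and 24.9 CPM in WT-D against 31.0, 29.7, 22.7 and 48.6 CPM in 3xTg-D, 30.8, 31.1 and 26.5 CPM in WT-S and 31.0, 27.3, 28.9 and 38.2 CPM in 3xTg-S. For both genes the strains overlapped under each infusion, and the highest value of all 23 libraries was that of 3xTg-D replicate 4. The log2 strain difference at 10 months was 0.50 for H2-D1 (SE 0.15, adjusted p 0.0579) and 0.27 for H2-K1 (SE 0.12, adjusted p 0.219), and 0.32 and 0.14 without 3xTg-D replicate 4. In the vehicle pair they were 0.67 (SE 0.22, adjusted p 0.208) and 0.43 (SE 0.18, adjusted p 0.319), and 0.34 and 0.19 without 3xTg-D replicate 4. In untreated mice of 8 months, H2-D1 ranged from 17.6 to 26.9 CPM in WT-8M and from 18.0 to 37.8 CPM in 3xTg-8M (0.32, SE 0.19, adjusted p 0.422), and H2-K1 from 15.2 to 20.5 and from 16.1 to 30.0 CPM (0.44, SE 0.17, adjusted p 0.211).

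The non-classical heavy chain H2-T23 had the largest log2 strain difference of the 9 genes at 10 months. It had 5.01, 2.34, 3.53 and 3.06 CPM in WT-D, against 5.49, 7.99, 5.80 and 7.63 CPM in 3xTg-D, which did not overlap. With the inhibitor it had 3.72, 4.74 and 3.62 CPM in WT-S and 7.60, 3.70, 5.36 and 7.90 CPM in 3xTg-S, where replicate 2 of 3xTg-S lay among the WT animals. The log2 difference over both infusions was 0.79 (SE 0.18, adjusted p 0.00951), called in all of 23 alternatives but the microglia covariate (0.61, adjusted p 0.25), and it was 0.74 (adjusted p 0.0223) without 3xTg-D replicate 4. With vehicle alone it was 0.93 (SE 0.21, adjusted p 0.0612) and 0.87 without that library. At 8 months it was 0.61 (SE 0.22, adjusted p 0.181), with 3.22, 3.09, 3.53 and 4.41 CPM in WT-8M and 5.38, 6.93, 3.23 and 6.39 CPM in 3xTg-8M. Since H2-T23 shares sequence with other class I genes, its counts may be split among them, and its value is less certain than that of B2m.

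For the transporter, Tap1 had 3.32, 2.47, 3.20 and 2.69 CPM in WT-D, against 3.90, 3.54, 3.53 and 6.36 CPM in 3xTg-D, without overlap between the groups. Its log2 difference there was 0.55 (SE 0.21, adjusted p 0.283), and 0.31 without replicate 4. In the inhibitor groups the order was not kept, with 2.66 to 5.25 CPM in WT-S and 2.73 to 5.74 CPM in 3xTg-S and a difference of -0.10. Tap2, the other subunit of the transporter, had group means from 6.81 ± 0.611 CPM in WT-D up to 8.30 ± 0.389 CPM in 3xTg-S, and its strain difference at 10 months was 0.15. For Tapbp that difference was 0.19 (SE 0.07, adjusted p 0.16). At 8 months the strain difference was 0.16 for Tap1, with means of 3.14 ± 0.712 CPM in WT-8M and 3.39 ± 1.34 CPM in 3xTg-8M, and 0.05 for Tap2. Tapbp was the 1 gene of the 9 whose groups of 8 months did not overlap, where 5.25% of all tested genes were separated in this direction. It had 18.5, 19.5, 20.03 and 17.6 CPM in WT-8M and 23.3, 24.7, 20.7 and 22.9 CPM in 3xTg-8M (0.29, SE 0.08, adjusted p 0.0802).

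The immunoproteasome genes were both called higher in 3xTg at 10 months. Psmb8, which encodes the inducible counterpart of Psmb5, had 3.26, 2.20, 3.53 and 3.31 CPM in WT-D, against 3.61, 4.39, 4.61 and 7.14 CPM in 3xTg-D. With the inhibitor it had 3.56, 3.74 and 3.62 CPM in WT-S and 4.93, 4.42, 4.56 and 4.73 CPM in 3xTg-S. The strains did not overlap under either infusion. The log2 difference was 0.53 (SE 0.14, adjusted p 0.026) over both infusions, called in all of 23 alternatives but the microglia covariate (0.40, adjusted p 0.363), and 0.40 (adjusted p 0.0394) without 3xTg-D replicate 4. With vehicle alone it was 0.67 (SE 0.22, adjusted p 0.205), and between the inhibitor groups 0.36. At 8 months Psmb8 ranged from 2.44 to 3.38 CPM in WT-8M and from 2.18 to 4.93 CPM in 3xTg-8M (0.48, SE 0.22, unadjusted p 0.0553).

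Psmb9, which encodes the inducible counterpart of Psmb6, had the lowest counts and the largest difference between the vehicle groups. It had 0.931, 0.801, 0.999 and 0.918 CPM in WT-D, against 1.59, 1.96, 1.38 and 3.11 CPM in 3xTg-D, which did not overlap. In WT-S it had 1.47, 1.37 and 0.993 CPM and in 3xTg-S 1.34, 1.56, 1.25 and 2.09 CPM, which did. The log2 difference was 1.12 (SE 0.28, adjusted p 0.0866) between the vehicle groups, 0.83 without 3xTg-D replicate 4, and 0.74 (SE 0.21, adjusted p 0.0444) over both infusions. The last value was called in 11 of 23 alternatives and was not called when any 1 of 9 of the 15 libraries was left out (adjusted p 0.0565 to 0.0885, log2 0.56 to 0.77). Those 9 were all 4 WT-D libraries, 3xTg-D replicates 1, 2 and 4, WT-S replicate 3 and 3xTg-S replicate 4. Relative to Psmb6 and per kilobase, Psmb9 stood at 0.00646 to 0.00877 in WT-D, 0.0128 to 0.0267 in 3xTg-D, 0.00713 to 0.0116 in WT-S and 0.00947 to 0.0177 in 3xTg-S. Psmb8 relative to Psmb5 overlapped between the vehicle groups (0.0506 to 0.0943 in WT-D and 0.0614 to 0.123 in 3xTg-D). In untreated mice of 8 months Psmb9 ranged from 0.826 to 1.39 CPM in WT-8M and from 0.60 to 1.83 CPM in 3xTg-8M.

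In the vehicle pair, H2-T23, Tap1, Psmb8 and Psmb9 thus were the 4 genes without overlap, where 3.79% of all tested genes were separated in this direction. Between the inhibitor groups B2m and Psmb8 were, 2 of 9 against 5.53% of all. Without 3xTg-D replicate 4 all 9 differences between the vehicle groups stayed positive and their median fell from 0.67 to 0.34. Over both infusions without it, B2m (0.42, adjusted p 0.00203), H2-T23 and Psmb8 stayed called, Psmb9 was lost (0.56, adjusted p 0.0827), and the median was 0.32.

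**Figure D2:**
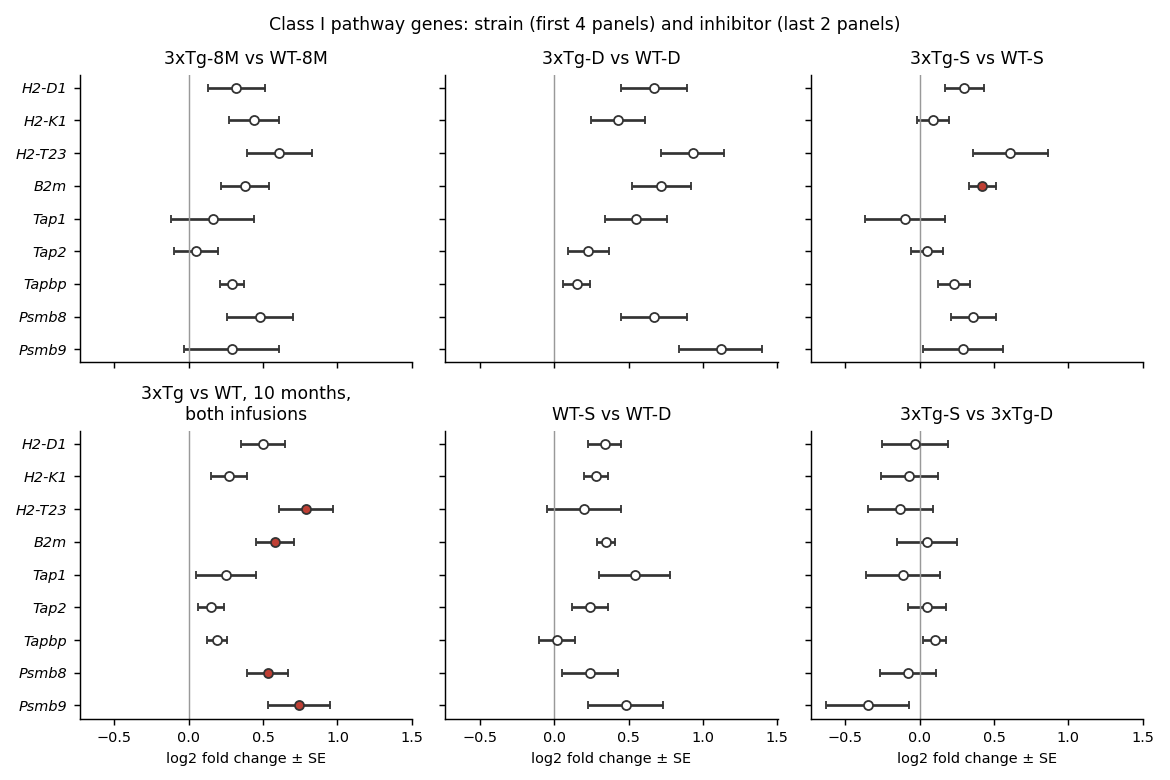
Log2 fold change with SE (x axis) of each of the 9 genes (y axis) in 6 comparisons, with filled points for an adjusted p under 0.05. Strain differences lie mostly right of 0, with 4 filled points over both infusions and 1 (B2m) between the inhibitor groups, and the inhibitor differences are positive in WT and scattered about 0 in 3xTg.

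The next question was whether the inhibitor changed the pathway. In WT (WT-S against WT-D) all 9 log2 differences were positive, from 0.02 for Tapbp to 0.54 for Tap1, with a median of 0.28. None of the 9 was called, nor was any of 15724 tested genes (0.0%), and the smallest adjusted p of the 9 was 0.981. At an unadjusted p under 0.01 stood 3 of the 9, B2m (0.35, SE 0.06, p 0.000204), H2-K1 (0.28, SE 0.08, p 0.00419) and H2-D1 (0.34, SE 0.11, p 0.00927), against 0.273% of all tested genes. With Tap1, 4 had one under 0.05 against 2.05% of all, and DESeq2 called 0. The ranges of 5 genes (B2m, H2-K1, H2-D1, Tap2 and Psmb8) did not overlap, against 2.94% of all tested genes. The largest WT-D value of B2m was 72.8 CPM and the smallest of WT-S 81.3 CPM, and for H2-K1 they were 24.9 and 26.5 CPM. Choroid plexus markers moved with this comparison in 1 library: their summed level was 392.9 CPM in WT-S replicate 2, but 51.44 and 41.85 CPM in the other WT-S animals and 42.5 to 51.49 CPM in WT-D, and 7 of 7 tested markers were positive with a median of 1.25 and 0 called. With the choroid plexus score as a covariate 8 of the 9 class I genes were positive with a median of 0.25, and without WT-S replicate 2 the values were 8 and 0.23. Meninges and fibroblast markers (9 of 10 positive, median 0.42) and endothelium (12 of 14, median 0.10) were also mostly positive here. So were blood (5 of 5, median 0.50) and MHC class II (5 of 5, median 0.59), and 0 were called in any of these lists. With the endothelium score as a covariate 8 of the 9 class I genes were positive with a median of 0.24 and 0 called. The part of the other lists in the result was not tested.

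In 3xTg (3xTg-S against 3xTg-D) 3 of the 9 differences were positive and 6 negative, from -0.35 for Psmb9 to 0.10 for Tapbp, and 0 were called in edgeR or DESeq2, as in 0.0% of all tested genes. The smallest adjusted p was 0.635, and 0 of the 9 reached an unadjusted p under 0.05. When 3xTg-D replicate 4 was left out, 7 of 9 were positive with a median of 0.16. The inhibitor term over both strains was -0.03 to 0.19, with 0 of the 9 called against 0.0% of all tested genes and a smallest adjusted p of 0.507. It was positive for 8 of 9 with a median of 0.09, and for 9 of 9 with a median of 0.20 and 0 called without 3xTg-D replicate 4, where B2m stood at 0.35 and H2-D1 at 0.32. An interaction term was used to test whether it differed between the strains, and 0 of the 9 were called (0.0% of all tested genes, adjusted p 1.0 for each). For the inhibitor term and for the interaction alike, 0 of the 9 reached an unadjusted p under 0.05 and DESeq2 called 0. In the interaction 8 of 9 terms were negative with a median of -0.33, the largest being Psmb9 (-0.83, SE 0.40, p 0.0536) and Tap1 (-0.65). The median was -0.09 without 3xTg-D replicate 4. The inhibitor contrasts of the strains were thus not shown to differ.

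Inhibitor-treated 3xTg mice were also set against vehicle-treated WT mice, a comparison in which strain and inhibitor vary together. Here 2 genes were called higher, where 1.19% of all tested genes were, and 7 of the 9 had an unadjusted p under 0.01, where 3.58% did. B2m was 0.78 higher on the log2 scale (SE 0.08, adjusted p 8.51e-05) and H2-D1 0.64 (SE 0.13, adjusted p 0.0236). H2-K1 (0.37, adjusted p 0.069), Psmb8 (0.60, adjusted p 0.0776), Psmb9 (0.77, adjusted p 0.126), Tapbp (0.25, adjusted p 0.134) and H2-T23 (0.81, adjusted p 0.137) were not called. All genes but H2-T23 and Tap1 had ranges that did not overlap, 7 of 9 against 5.76% of all. H2-D1 was lost when WT-D replicate 2 (adjusted p 0.0534), WT-D replicate 3 (0.0654), 3xTg-S replicate 1 (0.0694) or 3xTg-S replicate 4 (0.0543) was left out, whereas B2m was called without each library. With the microglia score as a covariate 0 were called, with B2m at 0.78 (adjusted p 0.191) and H2-D1 at 0.32 (adjusted p 0.769). In this comparison 18 of 18 microglia markers were positive and 11 called higher (median 0.50). Of the oligodendrocyte markers (8 of 8 positive, median 0.27), Mbp and Mobp were among those called higher, as was Hbb-bt among the blood markers (5 of 5, median 1.81).

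Finally, the strain difference was compared between vehicle-infused mice of 10 months and untreated mice of 8 months, which also differ in surgery and cohort. The interaction called 0 of the 9 genes, where 0.0621% of all tested genes were called in either direction, and the smallest adjusted p was 0.557. None reached an unadjusted p under 0.05, and DESeq2 called 0. It was positive for 7 of 9, with the largest value for Psmb9 (0.84, SE 0.45, p 0.0793) and -0.01 for H2-K1. The median was 0.33, and 0.04 without 3xTg-D replicate 4.

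How the 9 genes varied from animal to animal was described by Pearson's r over the 23 libraries after group means were removed. Libraries share their depth and cell makeup, so these values are given with no test. The 36 pairs had a median r of 0.65. H2-D1 and H2-K1 moved together most closely (0.94), followed by H2-K1 and B2m (0.93), H2-D1 and B2m (0.89) and H2-K1 and Psmb9 (0.89). Tap1 and Tapbp were at the other end (-0.05), and Tapbp had the lowest median r with the others (0.38), followed by H2-T23 (0.53). Although B2m and H2-K1 moved together among animals of a group, their ratio per kilobase was higher in each 3xTg animal of 10 months than in each WT animal of that age. It was 5.18 to 5.51 in WT-D and 5.36 to 5.78 in WT-S, and 5.96 to 6.85 in 3xTg-D and 6.78 to 7.60 in 3xTg-S, without overlap. At 8 months it was 6.19 to 8.52 in WT-8M and 6.72 to 7.83 in 3xTg-8M, which overlapped. This ratio was chosen after the values were seen and was not tested.

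Of 11645 genes averaging 5 CPM or more, those whose level followed the mean of the 9 most closely within groups included Ifi27 (r 0.874), Gbp3 (0.844), Oasl2 (0.82), Lgals3bp (0.819), Ifitm3 (0.79), Mcm6 (0.789) and Ifit3 (0.778). All of these but Mcm6, a subunit of the replicative helicase, were on the list of interferon-stimulated genes. Over the 15 libraries of 10 months, without removing group means, they were Gbp3 (0.907), Ifi27 (0.885), Lgals3bp (0.875), Oasl2 (0.869), Eif2ak2 (0.863), Irf9 (0.858), Ctss (0.857) and Ifit3 (0.854). Ctss encodes the lysosomal protease cathepsin S and is a microglia marker.

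The other genes of the pathway were then examined as lists. Of 41 interferon-stimulated genes, 40 were tested for strain at 10 months, 39 were positive and 14 were called higher in 3xTg, with a median log2 difference of 0.62. They included Ifi27l2a (2.45, adjusted p 0.00413), the chemokine gene Cxcl10 (1.89, adjusted p 0.0085), the ISG15 protease gene Usp18 (1.82, adjusted p 0.00844) and Ifit1 (1.57, adjusted p 0.0119), whose product binds foreign RNA. The count was 10 without 3xTg-D replicate 4. Between the vehicle groups 36 of 36 were positive with a median of 0.71, but 1 was called, Parp14 (1.06, adjusted p 0.0499), and 0 without that library. At 8 months 30 of 35 were positive with a median of 0.45 and 0 were called, although 6 had an unadjusted p under 0.01. Without 3xTg-8M replicate 3, 6 were called. With the inhibitor in WT 27 of 35 were positive (median 0.29), and in 3xTg 10 of 40 (median -0.17), with 0 called in either.

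Of 20 genes for class I transcription factors, interferon receptors and the kinases Jak1 and Jak2, 4 were called higher in 3xTg at 10 months. They were Stat2 (0.40, SE 0.07, adjusted p 0.00219) and Irf9 (0.53, SE 0.14, adjusted p 0.0281), which join in the complex that type I interferon activates, Irf8 (0.42, SE 0.12, adjusted p 0.038), a factor of the myeloid lineage, and the interferon-gamma receptor gene Ifngr1 (0.20, SE 0.05, adjusted p 0.015). Stat2 was also called between the vehicle groups (0.50, adjusted p 0.0288), but not without 3xTg-D replicate 4, where 0 of the 20 were called higher. At 8 months 0 of the 20 were called, with Stat2 at 0.39 (adjusted p 0.07), Irf9 at 0.62 (adjusted p 0.11) and Ifnar1 at -0.19 (adjusted p 0.186). Nlrc5, the class I transactivator, had at most 40 counts in a library and a mean of 0.905 CPM.

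Other class I genes were mixed in direction. Of 18 heavy chains and relatives other than the 9, 13 were tested for strain at 10 months, 4 were positive and 2 were called, H2-T22 (0.67, SE 0.14, adjusted p 0.00543) and H2-M3 (0.71, SE 0.20, adjusted p 0.0359), with a median of -0.04 for the list. Without 3xTg-D replicate 4, 1 was called. With vehicle alone 7 of 12 were positive and 0 called, with H2-Q4 at 0.78 (adjusted p 0.216) and H2-T22 at 0.63 (adjusted p 0.166). At 8 months 7 of 10 were positive and 0 called, and the smallest p values were those of Mr1 (-0.30, adjusted p 0.279) and Hfe (-0.34, adjusted p 0.281). Of 8 genes of peptide trimming and loading, the chaperone gene Hspa5 was called higher in 3xTg at 8 months (0.58, SE 0.11, adjusted p 0.0164) and at 10 months (0.26, SE 0.08, adjusted p 0.0418), though not at 10 months without 3xTg-D replicate 4, and the list medians were 0.06 and 0.03.

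No partner of the immunoproteasome subunits was called between the strains. Of Psmb10, Psme1, Psme2, Psme3 and Pomp, another inducible subunit, the subunits of the PA28 activators and the assembly factor, 3 of 5 were positive at 10 months with a median of 0.01. At 8 months all 5 were positive with a median of 0.19, led by Psmb10 (0.29, adjusted p 0.271). The 14 constitutive proteasome genes had a median of -0.03 between the vehicle groups and 0.11 at 8 months, with 0 called in either. MHC class II genes, which present peptides from outside the cell, had medians of 0.66 at 8 months (6 of 6 positive), 0.73 between the vehicle groups (5 of 6) and 0.47 over both infusions (6 of 7), and 0 were called. Cd74, the invariant chain, had a mean of 3.09 ± 2.48 CPM in 3xTg-8M against 1.41 ± 0.434 CPM in WT-8M (1.11, SE 0.55, adjusted p 0.322).

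**Figure D3:**
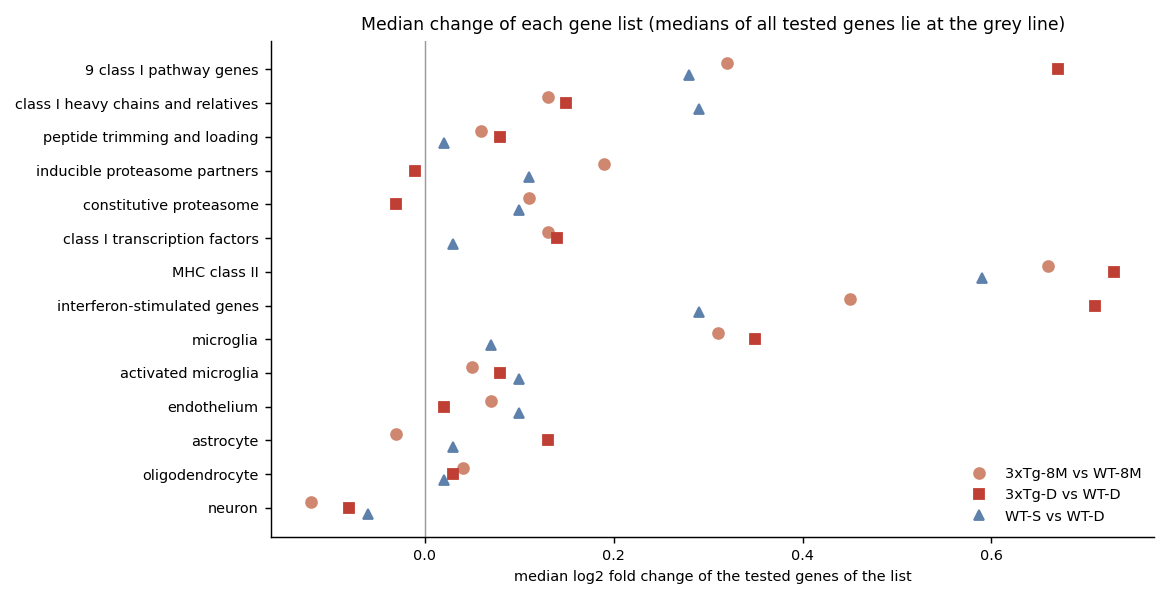
Median log2 fold change (x axis) of the tested genes of each list (y axis) in 3 comparisons, with the medians of all tested genes at the grey line. The 9 class I genes, the interferon-stimulated genes and MHC class II have medians of 0.67, 0.71 and 0.73 between the vehicle groups, and the constitutive proteasome and the partners of the immunoproteasome lie at -0.03 and -0.01.

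The cell makeup of the tissue was read from marker lists, since in whole tissue more cells of a type and more RNA per cell cannot be told apart. The labelled tissue was checked with 10 markers of hippocampal subfields, of which the dentate gyrus marker Prox1 was at 117.9 ± 3.16 CPM in WT-8M and 102.3 ± 18.1 CPM in 3xTg-8M. Of these 10, 4 were positive for strain at 10 months with a median of -0.05. Spink8 was called higher in 3xTg (0.93, adjusted p 0.00666), and C1ql2 (-1.41, adjusted p 1.08e-09), Wfs1 (-0.44, adjusted p 0.000234), Lmo7 (-0.20, adjusted p 0.0329) and Prox1 (-0.25, adjusted p 0.0426) were called lower. Microglia markers were all tested (18 of 18), and 18 were positive and 11 called higher in 3xTg at 10 months, with a median of 0.37, or 9 called without 3xTg-D replicate 4. Between the vehicle groups 17 were positive and C1qa and C1qb were called (0 without that library), and at 8 months 16 were positive and Tyrobp was called. Their summed level ranged from 502.6 to 615.0 CPM in WT-D, 559.1 to 882.7 CPM in 3xTg-D, 544.2 to 590.3 CPM in WT-S and 691.4 to 843.0 CPM in 3xTg-S. At 8 months it ranged from 516.0 to 610.1 CPM in WT-8M and 609.4 to 781.4 CPM in 3xTg-8M. The level of the 9 genes followed the microglia score with r 0.64 within groups over the 23 libraries and 0.79 over the 15 libraries of 10 months. For interferon-stimulated genes these values were 0.85 and 0.90, for endothelium 0.44 and 0.37, for choroid plexus -0.04 and 0.01 and for neurons 0.39 and -0.37. Of the other cell types, the strain medians at 10 months were 0.04 for endothelium (10 of 14 positive, 0 called), 0.12 for astrocytes (7 of 8, 0 called), 0.15 for oligodendrocytes (6 of 8, Mobp called), 0.13 for activated microglia (8 of 9, Cst7 called) and -0.08 for neurons (1 of 9, 0 called). They were 0.05 for choroid plexus (6 of 11, 0 called), 0.02 for meninges (6 of 10, 0 called) and 0.85 for blood (5 of 5, 0 called). The highest summed choroid plexus level was 394.5 CPM in 3xTg-8M (median 62.2), 138.0 in 3xTg-D (median 97.08) and 265.4 in 3xTg-S (median 46.89). With the choroid plexus score as a covariate, strain medians of the 9 genes were 0.32 at 8 months and 0.84 in the vehicle pair. They were 0.29 in the inhibitor pair and 0.50 over both infusions. The 2 libraries that stood apart did so in both lists or in 1 of them: 3xTg-D replicate 4 had the highest score of the 23 libraries for interferon-stimulated genes (1.27) and for microglia (0.44), whereas 3xTg-8M replicate 3 had the lowest for interferon-stimulated genes (-0.76) and -0.06 for microglia.

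With the microglia score as a covariate 0 of the 9 genes were called for strain at 10 months, 5 of 9 were positive and the median was 0.00. B2m then stood at 0.07 (adjusted p 0.862), H2-K1 at -0.18, Psmb8 at 0.40 (adjusted p 0.363) and H2-T23 at 0.61 (p 0.0354, adjusted p 0.25). Between the vehicle groups 7 of 9 were positive with a median of 0.17, and at 8 months 5 of 9 with a median of 0.04. Of the interferon-stimulated genes 0 were called for strain at 10 months, and 33 of 40 were positive with a median of 0.22. The score itself differed between the strains, so this fit removes strain differences that move with it, and whether more microglia or more class I RNA per cell lay behind the values was not tested. T cell genes were near 0: Cd8a had at most 4 counts and was at 0 in 9 of 23 libraries, Cd3e at most 4 and at 0 in 15, and Cd8b1 at most 5 and at 0 in 12. Ptprc, the pan-leukocyte gene that microglia also express, was called higher in 3xTg at 10 months (0.43, SE 0.12, adjusted p 0.0347).

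**Figure D4:**
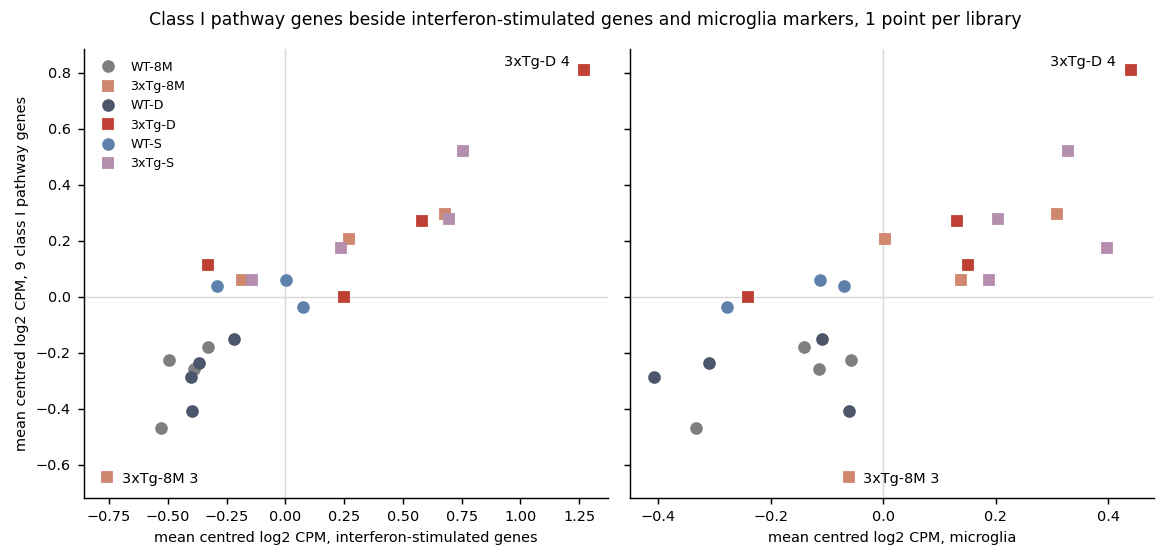
Mean centred log2 CPM of the 9 class I genes (y axis) against the same score for interferon-stimulated genes (left x axis) and microglia markers (right x axis), 1 point per library, with circles for WT and squares for 3xTg. 3xTg-D replicate 4 lies at the top right of both panels, and 3xTg-8M replicate 3 lies at the bottom left of the interferon panel but near -0.06 on the microglia axis.

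The position of the genes in the MHC was examined as well. Between the starts of Tapbp and H2-T23 on chromosome 17, over 2.11 Mb, the table held 203 other genes. Of the 91 tested for strain at 10 months 41 were positive with a median of -0.01, and 1 was called higher, the complement gene C4b (0.83, SE 0.14, adjusted p 0.00113), whose close copy C4a makes its value uncertain, and 2 lower, Cdsn (-1.68, SE 0.37, adjusted p 0.00813) and Bag6 (-0.12, SE 0.03, adjusted p 0.0378). With vehicle alone 40 of 85 were positive with a median of -0.01, and C4b was called (1.02, adjusted p 0.00559). At 8 months 68 of 85 neighbours were positive with a median of 0.12, and Hspa1b (0.80, adjusted p 0.00855) and Pbx2 (0.29, adjusted p 0.0166) were called, with C4b at 0.75 (adjusted p 0.0633). Hspa1b has a close copy, Hspa1a, and is as uncertain. With the inhibitor in WT 65 of 85 were positive with a median of 0.07, and 0 were called.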

How the data were processed

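RNA of whole hippocampus was measured in 23 libraries. Per the methods and labels, polyadenylated RNA was read from 1 end for 75 cycles, and the authors trimmed reads with Trimmomatic 0.35, aligned them to GRCm38 (Gencode annotation) with STAR 2.5.1b and deposited raw counts of reads per gene, neither normalised nor pooled. Strand setting and collapsing of molecular identifiers are not given in the sources used here. The 4 lines naming no gene (24.7% to 30.9% of reads) were left out of library sizes, and no column was unmatched. Groups were taken from the labels. Each pair was fitted on its own libraries, and additive and interaction terms on the libraries of both strains concerned, with edgeR 4.0.16 in R 4.3.3 (filterByExpr, TMM, quasi-likelihood test, Benjamini-Hochberg over all tested genes, called at an adjusted p under 0.05). All adjusted p-values come from this test, checked on simulated counts. The standard error is the log2 fold change divided by the square root of F. Scores are means of centred log2 CPM with a prior count of 2. Alternatives were DESeq2 1.42.0 size factors and its likelihood ratio test, no filter, length and GC offsets, score covariates and 1 fit over 15 libraries. Further alternatives were the study's own threshold (unadjusted p under 0.01), a block for runs of 4 animal numbers, and each library left out. The study applied its threshold to a likelihood ratio test in DESeq2, and here it was applied to edgeR's p-values. Transcript lengths and shared sequence came from Gencode M21, which held 99.7% of the genes in the table. Named genes are the 9 members, list genes that were called, the 3 pathway genes of each list with the smallest p in 3xTg-D against WT-D and 3xTg-8M against WT-8M, the 8 genes of most similar pattern, and called neighbours on chromosome 17. From these, the text gives a selection, some items are not reported here, and the marker and pathway lists were written from general knowledge. Members, lists and tests were chosen with earlier results of these data known.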

Additional observations from a re-analysis of the deposited data

Results flagged for a closer look

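Tap1 in 3xTg-D replicate 4, at 6.36 CPM, lay far from the other animals of its group, the nearest of which was at 3.90 CPM. It was the 1 of 45 groups of 4 animals in which the highest or lowest value passed Dixon's critical value, and chance alone gives such a value in about 1 of 20 groups. The same library was highest of its group in 8 of the 9 genes and had the highest scores for interferon-stimulated genes and microglia. What set it apart was not tested.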

How the results depend on the processing

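Of 1296 values of a gene under an alternative, 1231 kept their side of the threshold, 34 lost a call, 31 gained one and 62 changed sign, none of these with a call. The interactions are not in these counts, and some of their values also changed sign. Numbers below are counts of the 9 genes called.
With no filter on low counts the count was 2 (main 0) for 3xTg-8M against WT-8M, 6 (main 0) for 3xTg-D against WT-D, 3 (main 1) for 3xTg-S against WT-S and 5 (main 2) for 3xTg-S against WT-D. Of all genes then tested, 1.09%, 1.40%, 1.19% and 1.70% were called higher in these comparisons.
At an unadjusted p under 0.01 in edgeR's test it was 1 for 3xTg-8M against WT-8M and 3 for 3xTg-D against WT-D. It was 3 for WT-S against WT-D (main 0) and 7 for 3xTg-S against WT-D.
For 3xTg-D against WT-D it was 1 in DESeq2's likelihood ratio test and 2 in 1 fit of the 15 libraries.
For 3xTg-S against WT-S it was 0 with length and GC content removed, with the microglia, endothelium or choroid plexus score as a covariate, in 1 fit of the 15 libraries and with the animal-number block.
For 3xTg-S against WT-D it was 0 with the microglia score, 1 with the endothelium score and 1 in 1 fit of the 15 libraries.
For strain at 10 months it was 0 with the microglia score (main 4) and 5 with the animal-number block, which added H2-D1 (0.47, adjusted p 0.0275). The microglia score turned the median of 3xTg-S against WT-S to -0.056.
Leaving out each library gave 0 to 3 for 3xTg-8M against WT-8M (3 without 3xTg-8M replicate 3), 0 to 2 for 3xTg-D against WT-D (1 without WT-D replicate 1, 2 without 3xTg-D replicate 3), 0 to 1 for 3xTg-S against WT-S, 1 to 3 for 3xTg-S against WT-D and 3 to 5 for strain at 10 months. The causes were not tested. Except for no filter and the unadjusted threshold, the share of all tested genes called under each setting is not reported here. These counts thus do not show whether a gain or loss of calls was particular to the 9 genes. Each replicate was a different animal, and the labels do not say that a run of animal numbers was a batch. Depth limits Psmb9 most, with 8 to 60 counts per library.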
